A study of Mus musculus with 123 samples.

Results

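The effect of a high fat diet on liver RNA was examined at 1 phase of the daily clock, the phase that livers under Equal light reach at zeitgeber time (ZT) 16. The 20 libraries, 9 of the 61 on a high fat diet (HFD) and 11 of the 62 on a low fat diet (LFD) in the series, are those titled Equal light ZT16, Long light ZT20 or Short light ZT12. The times were chosen by the phase of the clock genes, which under Long light ran about 4 h later and under Short light about 4 h earlier than under Equal light on the labelled scale. Clock gene levels in these libraries were therefore used to select the libraries and are given below as a description, with no test between photoperiods. Both diets, the 3 photoperiods and 6 times 4 h apart make up the series of mouse livers. The 9 HFD libraries are 3 of each photoperiod, and the 11 LFD libraries are 4 under Equal light, 3 under Long light and 4 under Short light. The labels name no strain, allele, agent, age or sex, and leave out how long the light lasted in each photoperiod and what event is ZT0. Nothing in them ties a library to an animal, so that p-values measure only the spread between these libraries, which may be technical.

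The liver clock is a feedback loop in which CLOCK and BMAL1 (the product of Arntl) switch on the Per, Cry and Nr1d genes, whose products then act back on the loop. Genes of lipid, glucose and bile acid metabolism follow this loop and also follow food intake, through SREBP factors that drive fatty acid and sterol synthesis and through PPARA, the nuclear receptor of fatty acids that drives their oxidation. A high fat diet supplies fatty acids that liver would otherwise make from carbohydrate.

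The depth of the 20 libraries was 15.9 M to 39.1 M reads with a median of 26.2 M, and it was 26.8 ± 6.84 M in HFD (SD, n = 9) and 25.6 ± 5.97 M in LFD (SD, n = 11). Hepatocyte markers such as Alb and Apoa1 averaged 12.06 to 12.44 log2 CPM, reads scaled to a common library size, in each of the 20 libraries. Markers of pancreas or skeletal muscle averaged over 4 log2 CPM in 3 of the 20 libraries, all of them Long light ZT20: HFD replicate 2 and LFD replicates 1 and 3. The mean level of the muscle markers ranged from -3.07 to 3.44 log2 CPM in HFD (median -2.57) and from -3.12 to 4.995 in LFD libraries (median 0.42), with 0 of 13 called. That of the pancreas markers ranged from -2.63 to 4.83 in HFD (median -1.95) and from -2.73 to 6.65 in LFD (median -2.17), with 0 of 14 called, and the part of either in the diet differences was not tested.

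At the matched times the clock genes of the 3 photoperiods lay close together. The range of the 3 photoperiod means had a median of 0.50 log2 over the 15 clock genes, against 1.19 when ZT16 was taken in all photoperiods, and it was smaller after matching for 14 of the 15. The repressor gene Nr1d1 stood at 2.43 log2 CPM against 6.47 at matched ZT4. The match was not equally close on both diets. Peak times over the 15 genes moved by 4.06 h under Long light and -4.17 h under Short light on HFD, and by 4.97 h and -3.33 h on LFD, as means of fitted peak times.

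**Figure D1:**
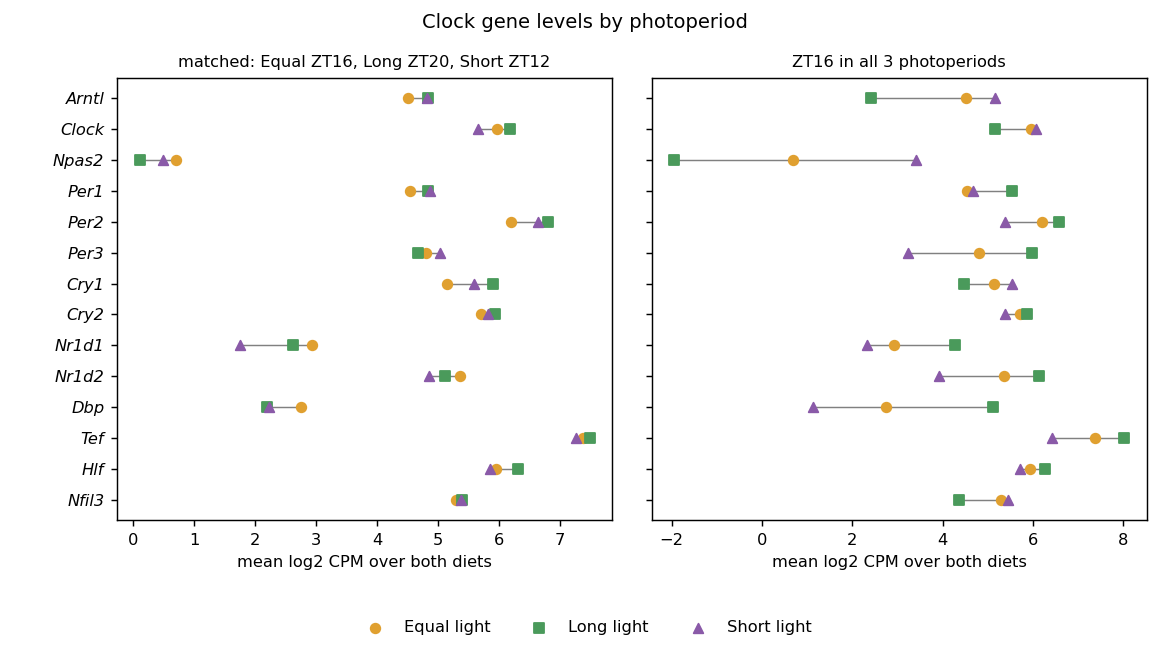
Mean log2 CPM of 14 of the 15 clock genes over both diets, with 1 marker for each photoperiod and 1 row for each gene, at the matched times (left) and at ZT16 in all photoperiods (right; the horizontal scales differ). The median range between photoperiods, over all 15, is 0.50 log2 on the left and 1.19 on the right.

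One library stood apart from this phase. In HFD Equal light ZT16 replicate 2, Dbp, a clock output factor, was at 6.14 log2 CPM against 0.88 to 3.75 in the other 19 libraries. Nr1d1 was at 7.35 there against 1.05 to 3.50 in the others, and Arntl at 2.71 against 4.27 to 5.18. Over the 15 clock genes this library lay nearest to the mean of matched ZT4, at a root mean square distance of 0.531 log2, and 2.12 from that of matched ZT16. Of the other 19 libraries 15 lay nearest to matched ZT16, and 4 to ZT12 or ZT20, next to it, each within 1.07 of ZT16. The clock gene means at matched ZT16, the ranges between photoperiods and the HFD peak times above include HFD Equal light ZT16 replicate 2. Without it the mean peak shift on HFD was 4.25 h under Long light and -3.96 h under Short light. Results are given with this library and, where its removal changed the call of a gene or list described here, without it.

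The diet changed 589 of 13424 genes tested (4.39%; limma, Benjamini-Hochberg adjusted p under 0.05), 273 higher on HFD (2.03%) and 316 lower (2.35%). The median difference of all genes was 0.000356 log2. Differences were mostly modest: 158 of the 589 passed 1.5-fold, and 52 passed 2-fold, 18 of them higher and 34 lower. The sign was the same in all 3 photoperiods for 584 of the 589. These genes were called on the same libraries pooled, so that this count is no test of agreement between photoperiods. The median size of the difference among the 589 was 0.42 log2 under Equal light, 0.29 under Long light and 0.35 under Short light. Without HFD Equal light ZT16 replicate 2 there were 408 calls, 376 of them shared with the 589. The number rested on the photoperiods that were combined: 9 genes were called without Equal light, 39 without Short light and 384 without Long light, and 621 without the 3 libraries rich in pancreas or muscle markers.

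Among the genes named by rule, the largest decrease on HFD was that of Fabp5, a fatty acid binding protein of the cytosol. In HFD libraries Fabp5 ranged from 2.36 to 4.59 log2 CPM with a median of 3.63, and in LFD libraries from 4.90 to 8.11 with a median of 7.19. The highest HFD library thus stayed below the lowest LFD library, and the lowest LFD values were the 3 of Long light, at 5.57, 4.90 and 6.42. Fabp5 fell by 3.24 log2 (SE 0.322, 9.46-fold, limma adjusted p = 2.36e-05), by 4.39 under Equal, 1.81 under Long and 3.35 under Short light. In whole liver a lower level can mean fewer cells that hold the RNA or less RNA in each cell, and these cannot be told apart. Fabp5 lies at chr3:10012548-10016607 on GRCm38.

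Pnpla3, a lipase-like protein of lipid droplets whose gene follows SREBP1c, fell by 2.53 log2 (SE 0.677, limma adjusted p = 0.0386). Its libraries spread widely and overlapped, from -0.70 to 5.46 log2 CPM with a median of 1.80 on HFD and from 2.36 to 7.14 with a median of 5.41 on LFD. On HFD the 3 highest values were 5.46 and 4.78 under Short light and 5.10 under Long light. Pnpla3 passed the threshold in 7 of the 20 fits that each left out 1 library, with an adjusted p of 0.0764 at most, reached without HFD Equal light ZT16 replicate 3, and 0.0692 without replicate 2 of that group. The leptin receptor gene Lepr ranged from 1.28 to 3.05 on HFD with a median of 1.82, and from 2.76 to 4.94 on LFD with a median of 4.15. The groups overlapped through the 2 highest HFD libraries, at 3.02 and 3.05, and the lowest LFD libraries, and Lepr fell by 1.90 log2 (SE 0.316, limma adjusted p = 0.00245).

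**Figure D2:**
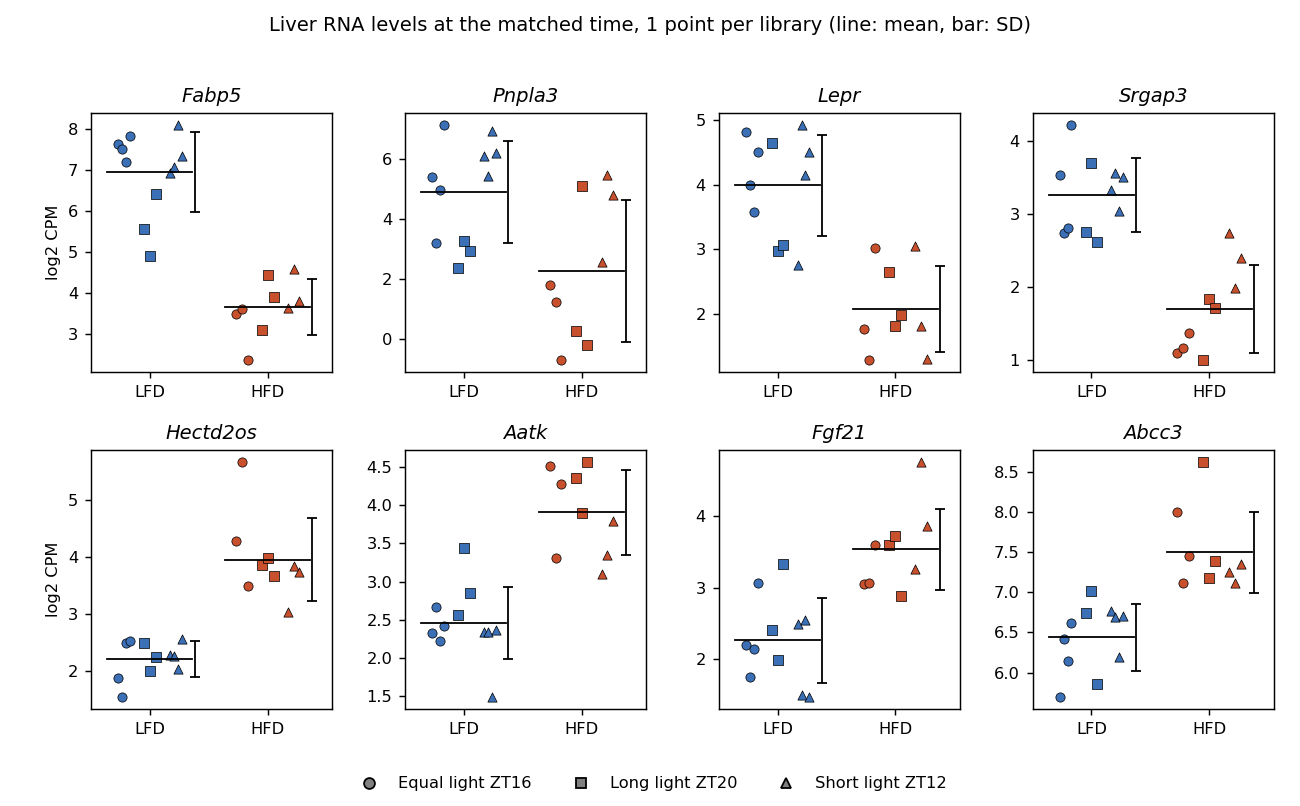
Log2 CPM of 8 genes with large diet differences, with 1 point per library, shapes for the photoperiods, lines for the mean and bars for the SD of 11 LFD and 9 HFD libraries. Fabp5, Hectd2os and Abcc3 show no overlap between the diets, and Pnpla3 shows the widest spread.

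Among the 12 largest decreases were regulators of transcription and of sugar use. Onecut1, a liver transcription factor, fell by 1.56 log2 (SE 0.405), and Foxq1, a forkhead factor, by 1.25 (SE 0.325), both with a limma adjusted p of 0.0328. Without the library whose clock genes stood apart, the adjusted p was 0.0652 for Onecut1 and 0.0680 for Foxq1. Pfkfb3, which makes the activator of glycolysis fructose-2,6-bisphosphate, fell by 1.14 (SE 0.252, adjusted p = 0.0143). Srgap3, a GTPase-activating protein of the Rac pathway, fell by 1.54 (SE 0.212, adjusted p = 0.000541). The others were Cib3, Acpp, Prss8, Ugt1a5 and Zfp970, with decreases of 1.13 to 1.28, of which Cib3 and Ugt1a5 had adjusted p-values of 0.0572 and 0.0607 without that library. Ugt1a5 shares exons with the other Ugt1a genes and Zfp970 has near copies among zinc finger genes, so that their read assignment is uncertain.

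Among called genes with a mean of at least 2 log2 CPM and 1 sign in all photoperiods, the largest increase was that of Hectd2os, an RNA antisense to Hectd2. It ranged from 3.03 to 5.68 log2 CPM on HFD with a median of 3.85 and from 1.53 to 2.55 on LFD with a median of 2.26, with no overlap. Hectd2os rose by 1.75 log2 (SE 0.230, limma adjusted p = 0.00038). The library kit keeps the strand, but the sources used here do not say whether reads were counted by it, so that reads of the sense gene cannot be told apart from it. Aatk, a kinase gene, ranged from 3.09 to 4.57 on HFD (median 3.90) and from 1.48 to 3.45 on LFD (median 2.37). The groups touched only through 1 LFD library of Long light at 3.45, and Aatk rose by 1.41 (SE 0.165, adjusted p = 0.000165).

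Hormone and receptor genes were among the 12 largest increases. Fgf21, a liver hormone that answers to fatty acids and fasting, ranged from 2.89 to 4.77 log2 CPM on HFD (median 3.60) and from 1.46 to 3.33 on LFD (median 2.20). The highest 2 LFD libraries overlapped the HFD range, and Fgf21 rose by 1.27 log2 (SE 0.252, limma adjusted p = 0.00731). Inhbe, which encodes a subunit of the liver activin E, rose by 0.91 (SE 0.161, adjusted p = 0.00353). Nr1i3, the gene of the xenobiotic receptor CAR, rose by 0.83 (SE 0.149, adjusted p = 0.00382). Nr4a1, an early response nuclear receptor gene, rose by 1.20 (SE 0.313, adjusted p = 0.0342), and its adjusted p was 0.0715 without the library whose clock genes stood apart.

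The E-box CACGTG, the letters that CLOCK and BMAL1 bind, reads the same on both strands and was sought in the 250 bases before each gene's start in RefSeq (GRCm38.p6). It was present for 6.86% of all genes with a promoter in the table and 9.86% of those tested, for 12.2% of the 213 higher genes and 7.17% of the 237 lower genes that matched. Of the 24 largest changes 19 matched and 5 held it: Aatk, Fgf21, Nr1i3, Onecut1 and Pfkfb3. Whether any factor binds these sites, and whether they have a part in the diet differences, was not tested. Fgf21 and Pfkfb3 are shown since 1 rose and the other fell and both hold it near the start, 50 and 53 bases before it, in capitals below, on the minus strand at chr7:45615491-45615740 and chr2:11502091-11502340.
Fgf21: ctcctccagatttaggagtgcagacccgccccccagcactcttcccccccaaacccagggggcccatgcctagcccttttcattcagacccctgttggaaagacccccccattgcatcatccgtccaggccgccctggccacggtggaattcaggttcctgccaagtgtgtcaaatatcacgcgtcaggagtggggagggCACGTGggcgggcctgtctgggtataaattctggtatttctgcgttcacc
Pfkfb3: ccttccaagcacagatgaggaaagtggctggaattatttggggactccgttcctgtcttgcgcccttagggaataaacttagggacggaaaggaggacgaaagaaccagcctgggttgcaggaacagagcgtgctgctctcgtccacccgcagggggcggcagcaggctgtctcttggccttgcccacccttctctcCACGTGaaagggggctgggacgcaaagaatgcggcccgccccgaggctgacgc

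Genes of transport and detoxification were among the other large increases. Abcc3, an efflux pump for bile acids and conjugates at the blood side of hepatocytes, ranged from 7.11 to 8.62 log2 CPM on HFD (median 7.35) and from 5.69 to 7.01 on LFD (median 6.62). The diets did not overlap, and Abcc3 rose by 1.04 log2 (SE 0.192, limma adjusted p = 0.00463). Aox3, an aldehyde oxidase, rose by 0.87 and Hsd17b6, a steroid dehydrogenase, by 0.89, the latter with an adjusted p of 0.0842 without the library whose clock genes stood apart. Adgrv1, an adhesion receptor gene, and Fbf1, a gene of the ciliary base, rose by 1.46 and 0.92.

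**Figure D3:**
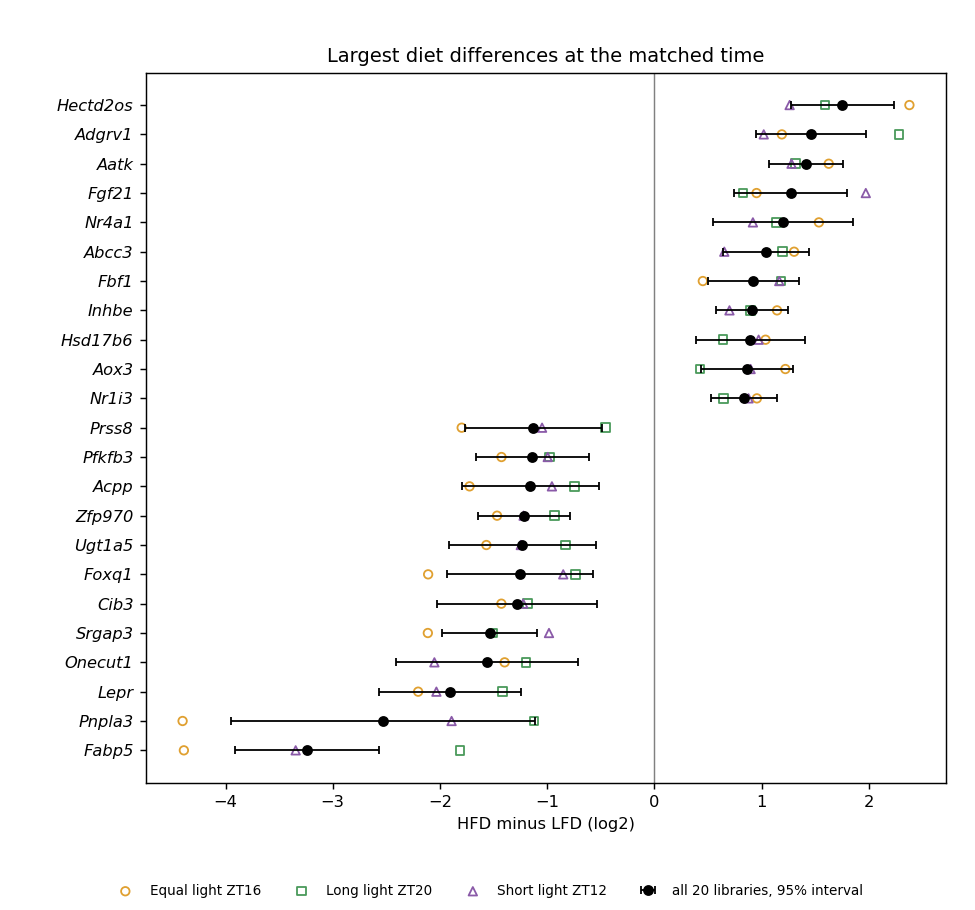
HFD minus LFD on the log2 scale for 23 of the 24 largest increases and decreases, with 95% intervals from all 20 libraries (black) and the difference within each photoperiod (open symbols). In each gene the 3 photoperiods lie on the same side of 0, which the naming rule required.

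Of the 24 genes, 15 stayed past the threshold whichever 1 of the 20 libraries was left out, 10 of the 12 increases and 5 of the 12 decreases. The other 9 lost the call in some of these fits, with adjusted p-values up to 0.0928 (Cib3, without HFD Equal light ZT16 replicate 1), and all 9 had a main adjusted p of 0.0328 or more. These were Pnpla3, Onecut1, Cib3, Foxq1, Ugt1a5, Acpp, Prss8, Nr4a1 and Hsd17b6.

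A complete separation of the 9 HFD from the 11 LFD libraries was seen in 30 genes (0.223% of those tested), 15 in each direction, all 30 among the 589. Besides those above, higher genes without overlap included Lect2 and, outside the naming rule and singled out after their values were seen, Ugt3a1, a UDP-glycosyltransferase gene, at 0.81 log2, and the adrenergic receptor gene Adra1a at 0.78. The lower genes included the chemokine gene Ccl9 at -0.68 and 7 genes of cytosolic ribosomal proteins, for example Rps12 at -0.39 and Rpl12 at -0.39, again singled out after their values were seen.

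Few members of the fatty acid synthesis list passed the test, although all 20 lay below 0, with a median of -0.60 log2 against 0.000356 for all genes tested. Of the 20, 2 fell and 0 rose, beside 2.35% of all genes that fell. They were Pnpla3 and, by 0.38 log2 (SE 0.107, limma adjusted p = 0.0491), Slc25a1, the mitochondrial carrier that exports citrate for lipid synthesis. Neither is an enzyme that makes, lengthens or desaturates fatty acids. Elovl6, which lengthens fatty acids, differed by -1.40 (SE 0.453, adjusted p = 0.0847), and Scd1, which desaturates them, by -1.05 (SE 0.355, adjusted p = 0.0983). The median of the list was -1.37 under Equal light, -0.12 under Long light and -0.45 under Short light. Without HFD Equal light ZT16 replicate 2 the list held 0 calls (limma, 408 over all genes), an adjusted p of 0.0679 for Slc25a1 and a median of -0.55, with all 20 still below 0.

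Genes of cholesterol synthesis, the other SREBP-driven path, had a median of -0.38 log2 with 22 of 24 below 0, and medians of -0.70 under Equal, 0.13 under Long and -0.37 under Short light. Of these, 2 fell, beside 2.35% of all genes tested, among them Tm7sf2 of late sterol synthesis by 0.55 (SE 0.133, limma adjusted p = 0.0234). Without the library whose clock genes stood apart, 1 of the 24 fell, Tm7sf2. Sqle, a rate-setting enzyme of the path, differed by -1.28 (SE 0.412, adjusted p = 0.0822).

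Genes of fatty acid oxidation lay on the other side. All 30 members of the oxidation and ketogenesis list lay above 0, with a median of 0.26 log2, and 5 rose while 0 fell, beside 2.03% of all genes that rose. They were Etfdh, which passes electrons from acyl-CoA dehydrogenases to the respiratory chain, at 0.30 (SE 0.0709, limma adjusted p = 0.0200), Acadm, the medium-chain dehydrogenase, at 0.43 (SE 0.102, adjusted p = 0.0225), Cpt2, which frees acyl-CoA inside mitochondria, at 0.30 (SE 0.0733, adjusted p = 0.0233), the carnitine carrier gene Slc22a5 at 0.56 (SE 0.139, adjusted p = 0.0257) and Hadh at 0.27. Of 18 PPARA target genes all lay above 0, with a median of 0.40, and 2 rose, Fgf21 and Creb3l3, a factor of the fasting response, at 0.29 (SE 0.0570, adjusted p = 0.00658). The median of the oxidation list was 0.26, 0.20 and 0.26 under Equal, Long and Short light. Without HFD Equal light ZT16 replicate 2, 7 of the 30 oxidation genes and 3 of the 18 PPARA targets rose.

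In the list of lipid droplet and lipid uptake genes the members differed in sign, with a median of 0.09 log2. Fitm1, a protein of droplet formation, rose by 0.64 (SE 0.164, limma adjusted p = 0.0321), with an adjusted p of 0.0511 without the library whose clock genes stood apart, and Fabp5 fell. Plin2, which coats lipid droplets, differed by 0.51 (SE 0.149, adjusted p = 0.0564).

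Bile acid genes held 4 that rose and 1 that fell of 16, beside 2.03% and 2.35% of all genes tested, with a median of 0.17 log2. Cyp8b1, which sets the share of cholic acid, rose by 0.51 (SE 0.104, limma adjusted p = 0.00927), and the uptake carrier gene Slco1b2 rose by 0.29 (SE 0.0650, adjusted p = 0.0145), as did Abcc3 and Baat, which conjugates bile acids, the last by 0.21. Slc10a1, the main bile acid uptake carrier, fell by 0.32 (SE 0.0672, adjusted p = 0.00951). Without the library whose clock genes stood apart, 3 rose and 1 fell, Baat being lost.

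Drug metabolism genes held 3 that rose of 21, beside 2.03% of all genes tested, and 0 that fell, with a median of 0.25 log2. Cyp2b9, a cytochrome P450 gene that is also on the female-biased list, ranged from 0.75 to 7.02 log2 CPM on HFD (median 2.85) and from -2.79 to 1.95 on LFD (median -1.14). The groups overlapped through 2 LFD libraries, both of Long light, at 1.45 and 1.95, and Cyp2b9 rose by 3.78 log2 (SE 0.756, limma adjusted p = 0.00758; 0.112 with limma-voom on reads), a value that the prior of the deposited scale makes smaller for the lowest libraries. Aldh1a1, a retinaldehyde dehydrogenase, rose by 0.65 (SE 0.119, adjusted p = 0.00416), beside Nr1i3.

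Pericentral hepatocyte genes, those of the zone around the central vein, all lay above 0, 16 of 16, with a median of 0.42 log2. The median of the list was 0.54 under Equal light, 0.18 under Long light and 0.60 under Short light. Of the 16, 4 rose, beside 2.03% of all genes tested. Lect2 rose by 0.52 (SE 0.0671, limma adjusted p = 0.000377) without overlap of the diets. Nkd1, a target and brake of Wnt signals, rose by 0.52 (SE 0.0820, adjusted p = 0.00181), Aldh3a2, which oxidises fatty aldehydes, by 0.82 (SE 0.136, adjusted p = 0.00245), and the glutamate carrier gene Slc1a2 by 0.39 (SE 0.106, adjusted p = 0.0404; 0.0804 without the library whose clock genes stood apart). Of 14 periportal genes 0 were called, with a median of -0.10. Without the library whose clock genes stood apart 1 fell, Sds, which breaks down serine, at -0.58 (adjusted p = 0.0318), against -0.39 (adjusted p = 0.294) with it.

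**Figure D4:**
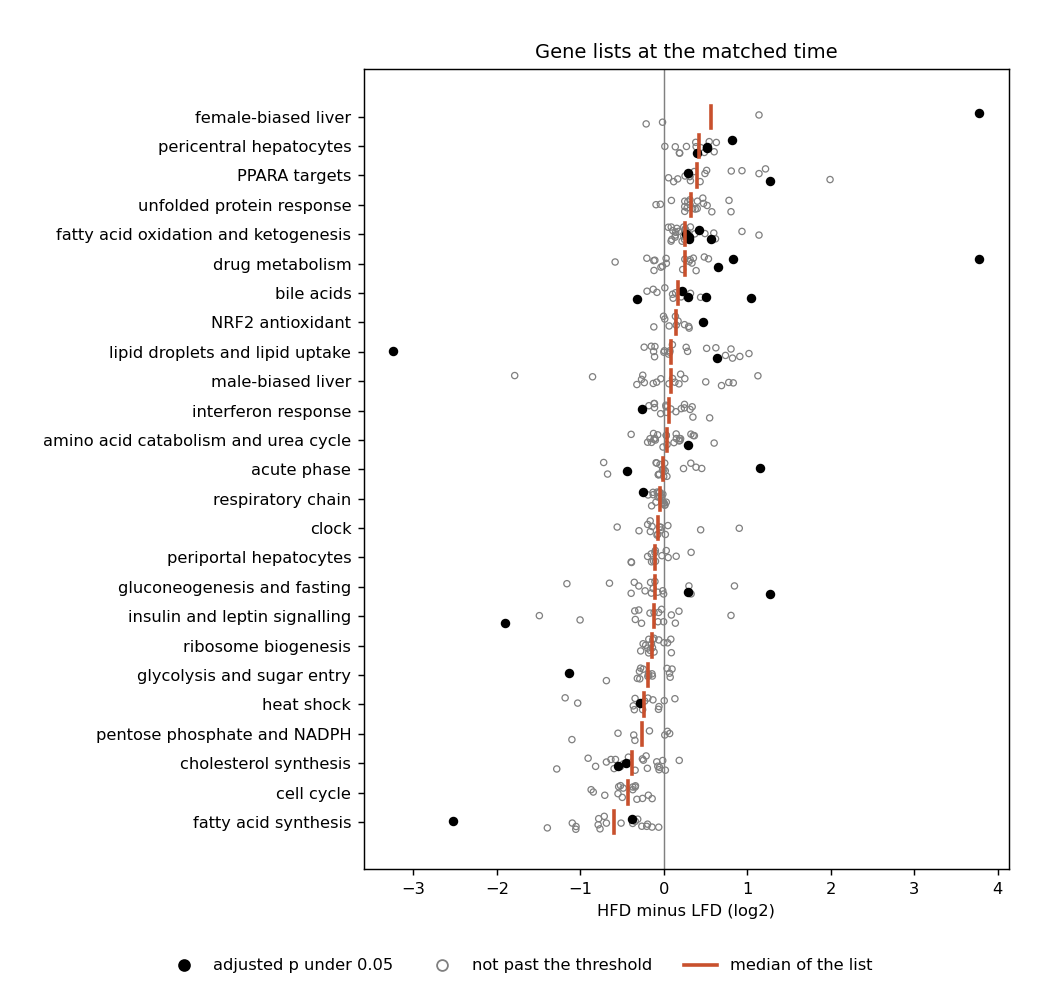
HFD minus LFD on the log2 scale for members of 25 gene lists, with 1 point per gene, filled where the adjusted p was under 0.05, and a bar at the median of each list. Fatty acid synthesis lies lowest with a median of -0.60, and all tested members of the oxidation, PPARA and pericentral lists lie above 0.

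Single members were called in other lists, a share to be read against the 4.39% called over all genes tested. Lepr was the only one of 17 insulin and leptin genes and Pfkfb3 the only one of 16 glycolysis genes, both lower. Otc of the urea cycle rose by 0.29 (1 of 25) and Ephx1 of the NRF2 list by 0.47 (1 of 11), while Bst2 of the interferon list fell by 0.26 (1 of 18), Sdhd of the respiratory chain by 0.25 (1 of 21) and Rbm3, a cold-inducible RNA-binding protein on the heat shock list, by 0.29 (1 of 14). Ephx1 and Rbm3 had adjusted p-values of 0.0777 and 0.0549 without HFD Equal light ZT16 replicate 2. Of the acute phase list Orm1 fell by 0.44 and Orm3 rose by 1.15, near copies whose reads are uncertain. The gluconeogenesis and fasting list (2 of 19) held the same Fgf21 and Creb3l3. Sds, lower without that library, is also a member of the amino acid and of the gluconeogenesis list.

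Several lists held 0 calls. The 20 unfolded protein response genes had a median of 0.33 log2, made up of 0.82 under Equal light, -0.08 under Long light and 0.25 under Short light. All 16 cell cycle genes lay below 0 with a median of -0.43, made up of -0.88 under Equal light, -0.32 under Long light and -0.11 under Short light. The clock, pentose phosphate, ribosome biogenesis, periportal and male-biased lists also had 0 calls. Without HFD Equal light ZT16 replicate 2 the male-biased list held 1, Elovl3, which lengthens fatty acids, at 0.87 (adjusted p = 0.0105) against 0.69 (adjusted p = 0.0767) with it, and the periportal list held Sds. Among the 15 clock genes Per2 differed most beyond its error, by -0.56 (SE 0.202, limma adjusted p = 0.124). The diet difference of Dbp was 0.05 with and -0.45 without the library whose clock genes stood apart, that of Nr1d1 0.44 and -0.18, and that of Arntl -0.08 and 0.18, and 0 of the 15 was called in either fit.

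Markers of other liver cells were examined in the same fit. Of 18 macrophage markers 0 were called, with a median of 0.16 log2, and their mean level ranged from 3.34 to 4.28 log2 CPM on HFD and from 3.31 to 4.10 on LFD. Of 13 stellate cell and matrix markers 3 rose, beside 2.03% of all genes tested: Colec11 by 0.31 (SE 0.0590, limma adjusted p = 0.00620), Reln by 0.30 and Hgf by 0.35, of which Reln had an adjusted p of 0.0549 without the library whose clock genes stood apart. The stellate list had a median of 0.15 log2, with 10 members above 0 and 3 below: Lrat at -0.26, Des at -0.12 and Acta2 at -0.12. The mean level of the stellate markers ranged from 4.25 to 4.74 on HFD and from 4.07 to 4.60 on LFD. Car3, which is abundant in fat tissue and in hepatocytes, rose by 0.76 (SE 0.163, adjusted p = 0.0117). Whether the number of these cells changed was not tested.

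Whether the diet acts differently at this phase than at others was tested over all libraries of the series. The difference at matched ZT16 minus the mean of the other 5 matched times gave 0 called genes (limma adjusted p under 0.05), with a lowest adjusted p of 0.0564, 905 genes at an unadjusted p under 0.05 (6.74%), and 0 called with limma-voom. The counts of calls at single times do not test this. With the spread of each time's own libraries, 55, 0, 159, 5, 589 and 436 genes were called at matched ZT0, 4, 8, 12, 16 and 20, and with 1 spread shared over all libraries 147, 2, 99, 99, 349 and 539. Of the 589, the sign at the other times, which are other libraries, was the same for 91.9% at matched ZT0, 85.9% at ZT4, 82.7% at ZT8, 87.4% at ZT12 and 97.3% at ZT20, beside 63.2%, 61.2%, 57.8%, 60.7% and 70.7% of all genes tested.

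Over the day Fabp5 was lower on HFD at each of the 6 matched times, by 2.63, 2.35, 2.57, 2.53, 3.24 and 3.07 log2 from ZT0 to ZT20. Fgf21 differed by 0.63, -0.17, -0.41, 0.06, 1.27 and 1.24, which gave a value 0.9997 higher at matched ZT16 than at the mean of the other times (unadjusted p = 0.0136 and adjusted p = 0.640 by limma). Pfkfb3 differed by -0.31, 0.06, -0.18, -0.50, -1.14 and -0.80, or 0.79 lower (unadjusted p = 0.00617, adjusted p = 0.618). Zfp970 differed by -0.59, 0.03, 0.26, -0.54, -1.22 and -0.62 (unadjusted p = 0.00201, adjusted p = 0.520). Fgf21, Pfkfb3 and Zfp970 were named for large differences at matched ZT16 in the same libraries. That choice favours a larger value at this time, so that their unadjusted p-values do not measure chance. The gene nearest to the threshold was the splicing factor gene Srsf5, at 0.33 here and -0.09 as the mean of the other times (adjusted p = 0.0564). Its diet difference at matched ZT16 alone had an adjusted p of 0.0294, and 0.0594 without the library whose clock genes stood apart.

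**Figure D5:**
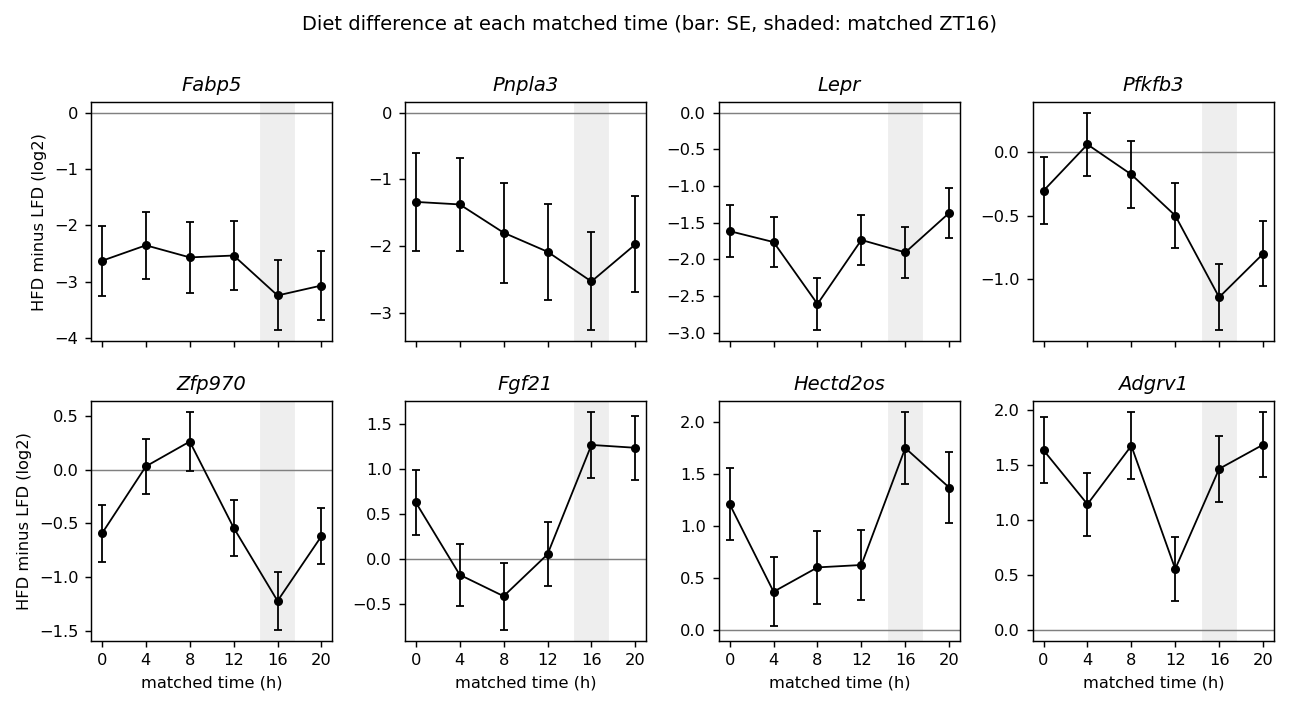
HFD minus LFD on the log2 scale at 6 matched times for 8 genes, with bars for the SE from the fit of all libraries of the series and the matched ZT16 shaded. Fabp5, Pnpla3 and Lepr lie below 0 at each time, while Fgf21 ranges from -0.41 to 1.27.

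The diet by photoperiod test in the 20 libraries gave 0 called genes (limma), with a lowest adjusted p of 0.9999, 276 genes at an unadjusted p under 0.05, and 0 called with limma-voom. Each group held 3 or 4 libraries, and differences between photoperiods such as the 4.39 and 1.81 of Fabp5 did not pass this test (adjusted p = 0.9999).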

How the data were processed

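RNA of mouse liver was compared between diets in 20 libraries of a larger series. The authors deposited 1 table of log2 CPM values for 15398 genes. STAR, featureCounts and Subread 1.6.2 stand in the submitters' processing notes, with the builds mm10 and GRCm38; their options, the annotation and the treatment of reads with several matches were not found in the labels. The floor of -3.6124 log2 fits a prior of 2 reads, and undoing it gave whole reads, to a tolerance of 0.05 read, at 99.43% or more of each library's genes. This prior makes differences of genes near the floor too small. Genes with 1 CPM in at least 3 of the 20 libraries were tested, 13424 in all.

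The deposited log2 values were fitted in limma 3.58.1 (R 4.3.3) with a trend, photoperiod as a block and diet, leaving 16 residual degrees of freedom, and p-values were Benjamini-Hochberg adjusted over all genes, at a threshold of 0.05. The other matched times entered a fit of all libraries with a block for each photoperiod and time and 6 diet effects, and diet by photoperiod was an F test in the 20. Lists were described by counts and medians. The members and lists were chosen with earlier results of these data known, and the ribosomal and translation families were added after their values were seen. Genes were named by rule: the 12 largest increases and 12 largest decreases among called genes of 1 sign in all 3 photoperiods whose mean reached 2 log2 CPM, the 15 clock genes, up to 4 genes of each list by smallest p, and the genes of smallest p in both other tests. Hadh and Baat were named to complete the count of called members. Unnamed gene models, 44 of the 589, were counted only, and a few named genes are not reported here. The fit was tested on simulated data with changes of 0.5, 1 and 2 log2. It recovered 70.1%, 94.0% and 100% of these, and 17 of its 193 calls were false. The simulated errors were normal and independent between genes and libraries, which those of the real libraries need not be. The median 95% half-width of a diet difference was 0.193 log2.

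Alternatives were other filters, pseudocounts, spreads and weights, limma-voom on the recovered reads, centring, libraries or photoperiods left out, and the labelled ZT16. Replicate numbers were given in accession order and pair nothing.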

Additional observations from a re-analysis of the deposited data

Results flagged for a closer look

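In the 2 groups with 4 libraries, 70 sets of values were examined for 1 library far from the other 3, and 6 were found, where chance gives about 1 in 20. In LFD Equal light ZT16 replicate 3, Foxq1 was at 5.46 log2 CPM against 4.07 to 4.24 in the other 3. In LFD Short light ZT12, Adgrv1 was at 2.01 in replicate 4 against 1.16 to 1.28 in the others. Replicate 3 of that group held 3 of the 6: Aatk at 1.48 against 2.34 to 2.37, Abcc3 at 6.19 against 6.69 to 6.76, and a mean of the cholangiocyte markers of 1.95 against 1.24 to 1.35. Replicate 1 had a mean of the lymphocyte markers of -0.65 log2 CPM against -0.18 to -0.16. The 3-library groups, HFD Equal light ZT16 with its replicate of shifted clock genes included, are too small for this rule.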

How the results depend on the processing

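The diet comparison called 589 genes as reported, against 349 with 1 spread shared over all libraries (296 shared with the 589), 250 in the libraries labelled ZT16 (134 shared), 9 without Equal light, 384 without Long light and 39 without Short light. Leaving out 1 library gave 393 to 712 calls for the diet, 0 to 5 for matched ZT16 against the other times and 0 for diet by photoperiod. Without the libraries rich in pancreas or muscle markers the test against the other times called 1 gene, Srsf5. Median centring gave 571 calls, 300 higher and 271 lower, limma-voom on reads 584, quality weights 704, and equal weight of photoperiods 468. Of the 55 named genes followed, 0 changed sign under these settings; 26 lost the call with the shared spread and 52 without Equal light. No paired analysis was possible because the replicate numbers come from accession order alone. The median 95% half-width of 0.193 log2, for single genes without adjustment, limits what could be seen at this depth and number of libraries. A call needed a larger difference for its error than this interval implies. In limma 2621 genes had an unadjusted p under 0.05, against the 589 called.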

Other observations

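Genes of the cytosolic ribosome were lower on HFD as a family that was counted after its values were seen and was not tested. Of 82 protein-coding genes with ribosomal protein symbols, 61 fell (74.4%, beside 2.35% of all genes tested) and 0 rose, and all 82 lay below 0, from -0.39 to -0.03 log2 with a median of -0.24. The median was -0.30 under Equal light, -0.17 under Long light and -0.24 under Short light. Rps12, of the small subunit, ranged from 6.38 to 6.55 log2 CPM on HFD and from 6.58 to 6.99 on LFD, Rpsa from 7.45 to 7.70 and from 7.71 to 8.01, and Rplp0, of the large subunit's stalk, from 7.78 to 8.03 and from 8.04 to 8.27. Their summed share of reads was 0.722% to 0.891% in HFD libraries (median 0.788%) and 0.874% to 0.971% in LFD libraries (median 0.901%). The diets overlapped through 1 HFD library, Short light ZT12 replicate 1, at 0.891%. Many of these genes have near-identical processed copies, so that their read assignment is uncertain.

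The count was 53 without HFD Equal light ZT16 replicate 2, 55 after median centring, 0 without Equal light, 2 without Short light and 39 with 1 spread shared over all libraries. At the other matched times the median of the family was -0.16, -0.15, -0.16, -0.13 and -0.27 log2 at ZT0, 4, 8, 12 and 20, and 1 of the 82 had an unadjusted p under 0.05 for the difference between matched ZT16 and those times. Of 8 elongation factor genes 5 fell, beside 2.35% of all genes tested, and 3 without HFD Equal light ZT16 replicate 2. Eef2, which moves the ribosome along the message, fell by 0.26 and was called in both fits. Of 77 mitochondrial ribosomal protein genes 2 fell (2.6%, near the 2.35% of all genes), and 0 without that library, with a median of -0.02. The settings of this paragraph were chosen after the data were seen for this family.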
